A study of Homo sapiens with 9 samples.

Results

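The 10 genes described here encode immune checkpoint ligands or related immune-inhibitory surface proteins: CD274, PDCD1LG2, CD276, VTCN1, CD80, PVR, NECTIN2, CD47, NT5E and LGALS9. They were picked by symbol, and all 10 were found among the 58735 genes of the deposited table. All libraries came from MDA-MB-231, a triple-negative human breast cancer line with mesenchymal features, labelled wild type and grown in DMEM with fetal bovine serum. One group of 3 libraries was kept in medium alone (No CM). A second group of 3 was kept in medium conditioned by untreated, non-senescent MDA-MB-231 cells (Cont CM). The last 3 received medium from cells of the same line that had been driven into senescence by 72 h with 100 ng/ml of the microtubule poison nocodazole (TIS CM, therapy-induced senescence). On exposure time the sources differ: 72 h in the sample labels, 48 h in the series text. Nothing states that the 3 libraries of a group came from separate cultures, so the p-values speak for the spread of these libraries alone, and that spread may be technical.

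Checkpoint ligands are surface proteins by which a cell dampens the lymphocytes, natural killer cells or macrophages that contact it. PD-L1 (CD274) and PD-L2 (PDCD1LG2) bind the receptor PD-1 on T cells, and tumour cells are known to raise PD-L1 through interferon gamma, the kinases JAK1 and JAK2 and the transcription factor IRF1. MDA-MB-231 is widely used as a breast cancer line with constitutive PD-L1. The other ligands act through separate receptors: PVR and NECTIN2 through TIGIT and CD226, CD47 through SIRP-alpha on macrophages, and CD73 (NT5E) by making extracellular adenosine.

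Depth, as fragments recovered on genes, ran from 32636708 to 39189036. VIM, which encodes the mesenchymal filament protein vimentin, stood between 345 and 401 FPKM (fragments per length of transcript and library size), and the hormone receptor genes ESR1 and PGR stood at no more than 0.00801 FPKM in any library. SPARC, also listed as a marker of this line, did not exceed 0.149 FPKM, while the epithelial keratin genes KRT18 and KRT8 stood between 107 and 158 and between 72.5 and 115 FPKM. Listed as low or absent in this line, ERBB2, EPCAM and GATA3 had group means of 8.27 to 9.23, 8.42 to 8.61 and 5.09 to 6.35 FPKM. Of 15 genes listed for the character of this line, 12 were tested. In Cont CM against No CM 3 rose (LOX, FN1 and MSN) and 4 fell (CDH1, KRT8, KRT18 and GATA3). FN1 and GATA3 kept these calls in 5 of 9 omissions of 1 library, MSN and KRT18 in 8, and the others in all 9. Against Cont CM, LOX and MSN were lower in TIS CM, calls kept in 7 and 2 of 9 omissions. Against No CM, LOX was higher and CDH1 lower in TIS CM, each kept in 3 of 9. CDH1, the gene of the epithelial adhesion protein E-cadherin, had means of 1.17, 0.299 and 0.438 FPKM in No CM, Cont CM and TIS CM. The part of this shift in the members' changes was not tested. Of 14 immune cell markers, CD3D, MS4A1 and NKG7 were among those at 0 in every library and PTPRC did not exceed 0.0277 FPKM. The summed level of those 14 markers lay between 6.22 and 7.56 FPKM in No CM, 4.76 and 5.33 in Cont CM, and 6.17 and 6.71 in TIS CM. CD14, the largest part of that sum, had group means of 4.75, 3.38 and 4.47 FPKM in the same order. Of the 14, 3 were tested: CD14, CSF1R (means of 1.05, 0.642 and 0.835 FPKM) and CD8A (0.558, 0.752 and 0.619 FPKM). In Cont CM against No CM limma called 1 of them, CD14, which was lower, and voom called 2. The limma call of CD14 held in 6 of 9 omissions of 1 library. Of 8 fibroblast and endothelial markers, DCN was at 0 in every library, and the 8 summed to between 3.01 and 3.26 FPKM in No CM, 2.50 and 2.81 in Cont CM, and 2.94 and 3.24 in TIS CM. Of the 8, 2 were tested. PDGFRB had means of 1.43, 0.989 and 1.44 FPKM in the same order, and was called lower in Cont CM than in either other group. The call against No CM held in all 9 omissions of 1 library and that against TIS CM in 4. The latter did not pass with the GC and length trend described below removed (limma adjusted p = 0.066). Both sums were lowest in Cont CM, and their part in the results was not tested. These are bulk libraries, in which fewer cells that carry a transcript and less of it per cell cannot be told apart. In Cont CM replicate 2 a dependence on GC content and length accounted for 17.7% of the variance around gene means, against 0.639% to 5.77% in the other 8 libraries. Values with that trend removed are given beside each call that this step ends or adds.

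Promoter sequence is shown for CD274, the one member called in all 3 comparisons, and for PVR and NECTIN2, whose order of levels differed between No CM and Cont CM. The sequences are from RefSeq (build GRCh38.p14, the same primary assembly as the hg38 of the submitters' processing notes). Windows were found for 9 of the 10 members; PDCD1LG2 was the other one. Each window held the 250 bases before the RefSeq start, and the part that lies before the first base of the GENCODE 29 gene is printed, 5′ to 3′, with motif matches in capitals.
CD274 (chr9:5450292-5450502, plus strand): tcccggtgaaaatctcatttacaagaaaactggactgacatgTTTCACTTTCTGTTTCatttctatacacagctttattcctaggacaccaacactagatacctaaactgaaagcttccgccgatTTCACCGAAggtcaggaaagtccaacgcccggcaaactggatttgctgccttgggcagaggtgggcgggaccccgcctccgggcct
PVR (chr19:44643660-44643797, plus strand): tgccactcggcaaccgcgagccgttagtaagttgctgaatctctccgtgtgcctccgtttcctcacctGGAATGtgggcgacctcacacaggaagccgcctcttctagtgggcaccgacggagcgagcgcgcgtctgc
NECTIN2 (chr19:44846047-44846174, plus strand): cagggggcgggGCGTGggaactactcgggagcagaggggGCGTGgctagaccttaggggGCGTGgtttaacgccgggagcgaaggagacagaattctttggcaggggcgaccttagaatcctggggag

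Both strands of the full 250-base windows were searched for 6 motifs. The interferon-response element was taken as GAAA, 2 bases of any kind and GAAA, the gamma-activated STAT site as TTCNNNGAA, the AP-1 site as TGANTCA, the hypoxia-response core as ACGTG or GCGTG, the TEAD site as GGAATG, and NF-kappaB by its consensus. The CD274 window held 2 interferon-element matches on the minus strand, between 208 and 193 bases before the RefSeq start, which overlap each other and no other motif. It also held 1 STAT-site match, 125 to 117 bases before the start. Over all 35114 promoter windows of that length, 3.02% held the interferon element and 6.57% the STAT site. The PVR window held 1 TEAD match (11.9% of all windows) and the NECTIN2 window 3 matches to the hypoxia core (43.2% of all windows). AP-1 (6.57% of all windows) and NF-kappaB (9.96%) matches were found in none of these 3 windows, which says only that those letters are not in them. A match is a description of the letters, not a bound site.

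Of the 10 members, 7 had a mean of at least 0.5 FPKM over the 9 libraries and were tested. On the length-corrected FPKM scale they ran, from the highest level to the lowest in No CM, NT5E, NECTIN2, PVR, CD47, CD276, CD274 and PDCD1LG2. NT5E stood at 116 ± 3.75 FPKM and PDCD1LG2 at 2.24 ± 0.244 FPKM there (SD, n = 3). In Cont CM the order of PVR and NECTIN2 was the other way round without overlap, and CD274 and CD276 overlapped. In TIS CM the PVR and NECTIN2 ranges overlapped. No other neighbours in the order overlapped in any group.

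Fold changes below are on the log2(FPKM + 0.5) scale, which understates changes of low genes, and a gene is called where limma's Benjamini-Hochberg adjusted p over all 13912 tested genes is under 0.05. In Cont CM against No CM, 4 of the 7 tested members rose (CD274, PDCD1LG2, PVR and NT5E), 1 fell (CD276) and 2 did not pass. Across all tested genes 16.3% were called in that comparison, 7.77% higher and 8.56% lower. In TIS CM against Cont CM 1 member was called, CD274, which was lower, where 4.48% of all tested genes were called (2.9% higher and 1.57% lower). In TIS CM against No CM 1 member was called, again CD274, which was higher, where 0.855% of all tested genes were called (0.403% higher and 0.453% lower). The median log2 fold change of the 7 members was 0.23, -0.08 and 0.11 in these 3 comparisons, and that of all tested genes was 0.00 in each. Each group serves in 2 of the 3 comparisons, so they share libraries and are not independent of one another. Groups that do not overlap are described below for single members. Over all tested genes the groups did not overlap for 33.3% in Cont CM against No CM, 28.6% in TIS CM against Cont CM and 24.4% in TIS CM against No CM.

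**Figure D1:**
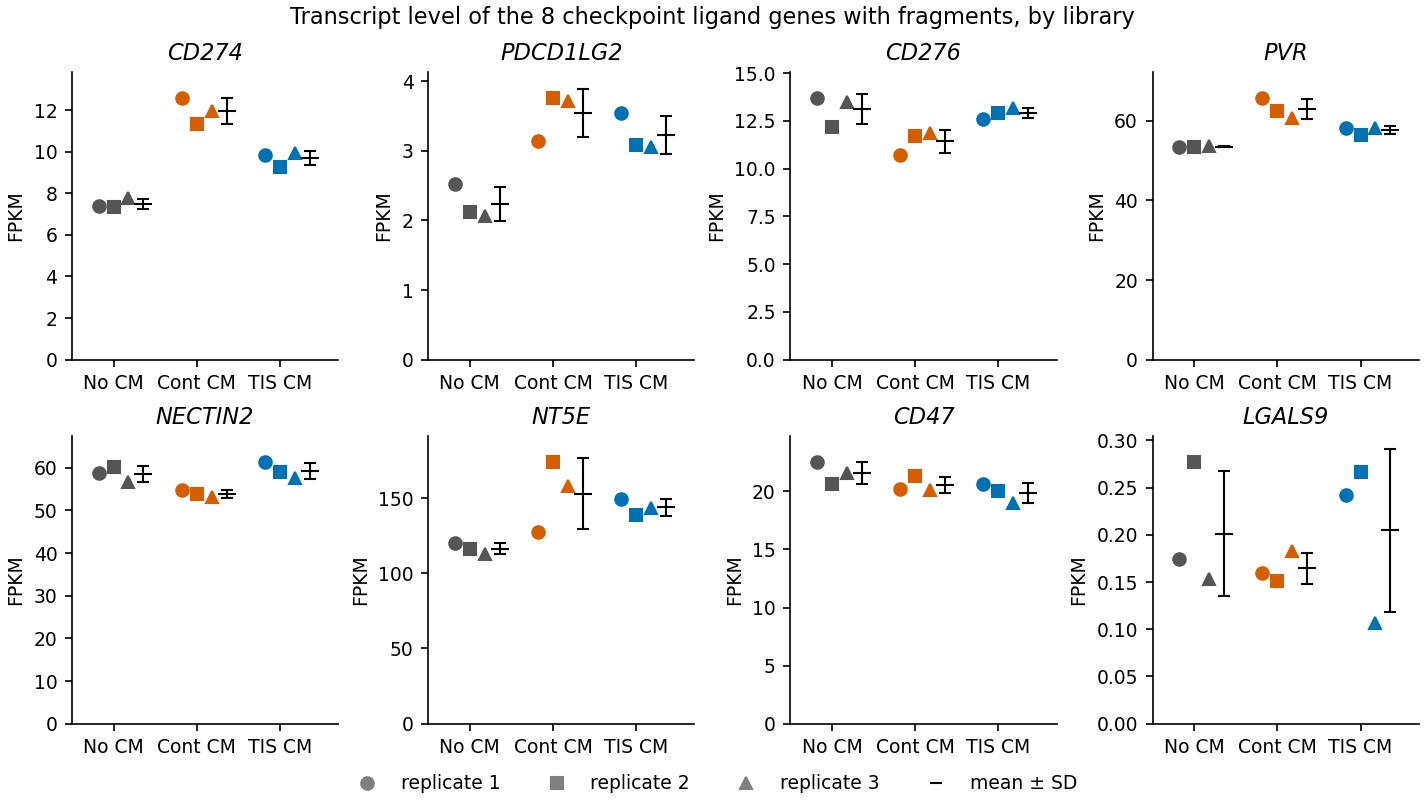
Transcript level in FPKM (vertical axes, from 0) of the 8 members with fragments, by group (horizontal axes); symbols are replicates 1 to 3 and black bars the mean ± SD of 3 libraries. CD274 lies between 7.34 and 7.77 FPKM in No CM, 11.3 and 12.6 in Cont CM, and 9.29 and 9.94 in TIS CM, with no overlap.

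CD274 lies on chromosome 9 (5450503 to 5470566, plus strand, ENSG00000120217) and encodes PD-L1, the main ligand of PD-1. It stood at 7.40, 7.34 and 7.77 FPKM in No CM replicates 1 to 3, at 12.6, 11.3 and 11.9 FPKM in Cont CM, and at 9.86, 9.29 and 9.94 FPKM in TIS CM. Every Cont CM library was above every TIS CM library, and every TIS CM library above every No CM library. These levels rest on between 1086 and 1925 fragments per library. CD274 rose 1.55-fold in Cont CM against No CM (log2 fold change 0.64, SE 0.05, limma adjusted p = 0.000133). That call held in all 9 omissions of 1 library and in all 10 other alternatives run. In TIS CM it was 1.27-fold higher than in No CM (log2 fold change 0.35, SE 0.05, limma adjusted p = 0.0236) and 1.22-fold lower than in Cont CM (log2 fold change -0.29, SE 0.05, limma adjusted p = 0.0211).

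The call of CD274 in TIS CM against Cont CM was kept in 6 of 9 omissions of 1 library, and that against No CM in 3 of 9, those of the Cont CM libraries. Against Cont CM the adjusted p was 0.075, 0.0851 and 0.0671 without TIS CM replicates 1, 2 and 3, and 0.0695 with the GC and length trend removed, with log2 fold changes between -0.30 and -0.25. A fit of those 2 groups alone gave 0.0731. Against No CM the limma adjusted p lay between 0.0626 and 0.124 without any single No CM or TIS CM library, with log2 fold changes between 0.33 and 0.38, and was 0.0635 with the replicate number as a block.

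PDCD1LG2 begins 40004 bases past the end of CD274 (chromosome 9, 5510570 to 5571254, plus strand, ENSG00000197646) and encodes PD-L2, the other PD-1 ligand. Its level was 2.52, 2.12 and 2.07 FPKM in No CM, 3.14, 3.75 and 3.72 FPKM in Cont CM, and 3.54, 3.09 and 3.06 FPKM in TIS CM. All 6 conditioned-medium libraries were above all 3 No CM libraries, and the Cont CM and TIS CM ranges overlapped. PDCD1LG2 rose 1.48-fold in Cont CM against No CM (log2 fold change 0.56, SE 0.09, limma adjusted p = 0.00442), a call kept in all 9 omissions and all 10 other alternatives. Its log2 fold change in TIS CM was 0.45 against No CM with SE 0.09 (limma adjusted p = 0.0714), and against Cont CM it was -0.11 with a 95% interval from -0.32 to 0.09 (limma adjusted p = 0.494). Without Cont CM replicate 1, TIS CM against No CM passed (limma adjusted p = 0.0278). The ratio of CD274 to PDCD1LG2 within a library ran from 2.79 to 4.0 over the 9 libraries, and its ranges in the 3 groups overlapped.

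Of 32 annotated genes within 500 kb of CD274, 7 were tested: CD274, PDCD1LG2, JAK2, PLGRKT, RIC1, ERMP1 and KIAA2026. JAK2, which encodes a kinase of the interferon gamma receptor, starts at -466 kb from the start of CD274 and stood at 1.12, 1.09 and 0.989 FPKM in No CM, Cont CM and TIS CM. Apart from the 2 PD-1 ligand genes, limma called 0 of these 5 neighbours in any comparison. The unadjusted 95% interval left out 0 for ERMP1 in Cont CM against No CM and in TIS CM against No CM, and for RIC1 and KIAA2026 in TIS CM against Cont CM. Voom called KIAA2026 in the last of these (log2 fold change -0.32, adjusted p = 0.0491). Without Cont CM replicate 1, limma called PLGRKT in Cont CM against No CM (log2 fold change 0.24, adjusted p = 0.0238). Their log2 fold changes in Cont CM against No CM lay between -0.03 for JAK2 and 0.20 for ERMP1, against 0.64 for CD274 and 0.56 for PDCD1LG2. The 95% intervals of CD274 and of PDCD1LG2 did not overlap those of JAK2, PLGRKT, RIC1, ERMP1 or KIAA2026 in that comparison. The PDCD1LG2 interval began at 0.356, just above the end of the ERMP1 interval at 0.352. In TIS CM against No CM the intervals of both ligand genes overlapped those of PLGRKT and ERMP1. In TIS CM against Cont CM the CD274 interval overlapped those of JAK2, RIC1 and KIAA2026, and the PDCD1LG2 interval overlapped that of every tested neighbour.

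**Figure D2:**
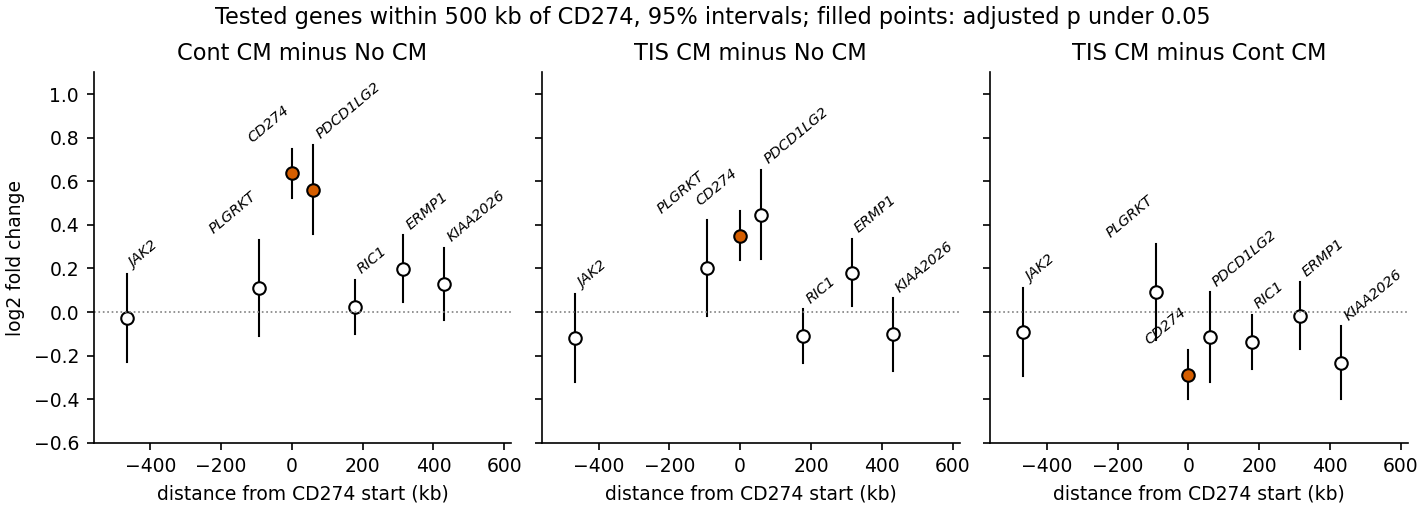
Log2 fold change (vertical axis) of the 7 tested genes within 500 kb of CD274, placed by the distance of their start from that of CD274 in kb (horizontal axis), for the 3 comparisons; lines are 95% intervals and filled points are called. In Cont CM against No CM the filled points are CD274 at 0.64 and PDCD1LG2 at 0.56.

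CD276 (chromosome 15, 73683966 to 73714518, plus strand, ENSG00000103855) encodes B7-H3, a member of the B7 family with inhibitory activity on T cells whose receptor is not settled. Its levels were 13.7, 12.2 and 13.5 FPKM in No CM, 10.7, 11.7 and 11.8 FPKM in Cont CM, and 12.6, 12.9 and 13.2 FPKM in TIS CM. The Cont CM libraries were the lowest 3 of the 9. CD276 fell 1.14-fold in Cont CM against No CM (log2 fold change -0.19, SE 0.05, limma adjusted p = 0.0435). For TIS CM against Cont CM its log2 fold change was 0.17 with SE 0.05 (limma adjusted p = 0.108), and against No CM it was -0.02 (limma adjusted p = 0.908).

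The CD276 call is not firm. It was lost in 8 of 9 omissions of 1 library, with limma adjusted p between 0.0575 and 0.142, and held only without No CM replicate 2 (0.0261). Its transcript has a GC content of 61.0%, against a median of 48.5% over the tested genes, and with the GC and length trend removed the log2 fold change was -0.09 (limma adjusted p = 0.379).

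No fragments of a further pair of B7 family members were found. VTCN1 (chromosome 1, 117143587 to 117210960), which encodes the inhibitory B7-H4, and CD80 (chromosome 3, 119524293 to 119559602), which encodes a ligand of CD28 and CTLA-4, had 0 fragments in all 9 libraries. A count of 0 allows up to 3 fragments in a library, which corresponds to between 0.0253 and 0.0300 FPKM for VTCN1 and between 0.0239 and 0.0284 FPKM for CD80, for counting error only. CD80 shares 798 exon bases with TIMMDC1 on the other strand, and the strand setting of the authors' counting is not known here.

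PVR and NECTIN2 encode nectin-family adhesion proteins that bind the inhibitory receptor TIGIT and the activating receptor CD226, PVR being the ligand of higher affinity. They lie 182592 bases apart on chromosome 19 (PVR 44643798 to 44663583, ENSG00000073008; NECTIN2 44846175 to 44889228, ENSG00000130202; both plus strand). PVR stood at 53.4, 53.4 and 53.6 FPKM in No CM, 65.6, 62.6 and 60.7 FPKM in Cont CM, and 58.2, 56.4 and 58.3 FPKM in TIS CM. The 3 groups did not overlap, with TIS CM in the middle. PVR rose 1.18-fold in Cont CM against No CM (log2 fold change 0.23, SE 0.04, limma adjusted p = 0.00361), a call kept in all 9 omissions and all 10 other alternatives. Its log2 fold change in TIS CM was 0.11 against No CM and -0.13 against Cont CM (limma adjusted p = 0.227 and 0.0769). With the GC and length trend removed the difference from Cont CM was -0.21 and passed (limma adjusted p = 0.0337).

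NECTIN2 stood at 58.7, 60.3 and 56.6 FPKM in No CM, 54.8, 53.8 and 53.0 FPKM in Cont CM, and 61.3, 58.9 and 57.6 FPKM in TIS CM. The Cont CM libraries were again the lowest 3, while No CM and TIS CM overlapped. No comparison of NECTIN2 passed in the main fit, with log2 fold changes of -0.12 for Cont CM against No CM (SE 0.04, limma adjusted p = 0.0618) and 0.14 for TIS CM against Cont CM (SE 0.04, limma adjusted p = 0.0714). With the GC and length trend removed these were -0.02 and 0.04, and NECTIN2 has a transcript GC content of 59.4%. Cont CM against No CM passed with equal library sums (-0.14, limma adjusted p = 0.039). It also passed without Cont CM replicate 1 (-0.13, limma adjusted p = 0.0479).

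The ratio of PVR to NECTIN2 within a library does not depend on library scaling. It was 0.910, 0.886 and 0.946 in No CM, 1.2, 1.16 and 1.15 in Cont CM, and 0.950, 0.958 and 1.01 in TIS CM. The Cont CM libraries thus carried more PVR than NECTIN2 per length of transcript and the No CM libraries less, and the 3 groups did not overlap. The ratio was 1.28-fold higher in Cont CM than in No CM and, against that, 1.2-fold lower in TIS CM. A 2-sided exact permutation test gave p = 0.1 for each, the smallest p that 3 against 3 libraries allow, so it cannot pass. With the GC and length trend removed the difference of the 2 log2 fold changes was 0.33 in Cont CM against No CM, and 0.35 without that step. The ratio of CD274 to CD276 followed the same order, at 0.573 ± 0.0304 in No CM, 0.752 ± 0.0311 in TIS CM and 1.05 ± 0.109 in Cont CM (SD, n = 3), again with an exact permutation p of 0.1. With the GC and length trend removed, the difference of the CD274 and CD276 log2 fold changes in Cont CM against No CM was 0.68, and 0.83 without that step. Both ratios restate the levels given above for their genes and are no separate evidence. How often the ratios of other gene pairs separate the groups was not computed.

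**Figure D3:**
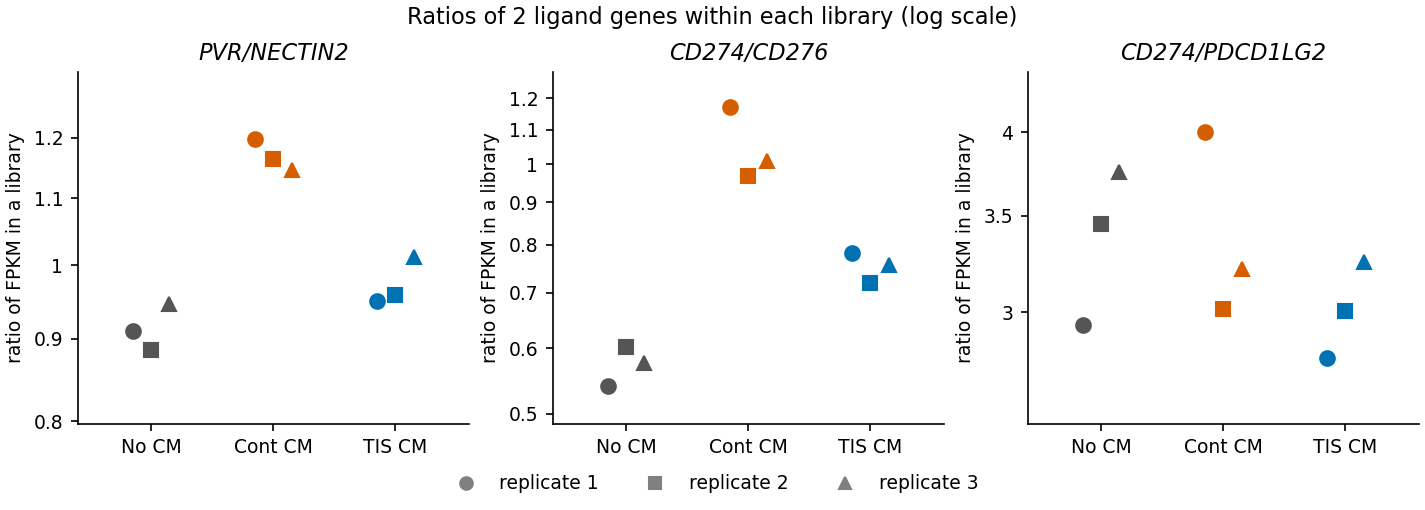
Ratio of the FPKM of 2 ligand genes within each library (vertical axes, log scale) by group; symbols are replicates 1 to 3. PVR/NECTIN2 lies between 0.886 and 0.946 in No CM, between 1.15 and 1.2 in Cont CM, and between 0.950 and 1.01 in TIS CM, while the CD274/PDCD1LG2 groups overlap.

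NT5E (chromosome 6, 85449584 to 85495791, plus strand, ENSG00000135318) encodes CD73, the surface enzyme that turns AMP into adenosine, and had the highest level of the 10 members in every library. It stood at 120, 116 and 113 FPKM in No CM, 127, 174 and 158 FPKM in Cont CM, and 150, 138.5 and 143 FPKM in TIS CM. All conditioned-medium libraries were above all No CM libraries, and Cont CM spread widely, from its lowest value in replicate 1 to its highest in replicate 2. NT5E rose 1.30-fold in Cont CM against No CM (log2 fold change 0.38, SE 0.10, limma adjusted p = 0.0287). The call was lost without Cont CM replicate 2 (log2 fold change 0.28, limma adjusted p = 0.0664), Cont CM replicate 3 (0.0792), or No CM replicates 1, 2 or 3 (0.0591, 0.0734 and 0.0955). It was also lost without the expression filter (0.0817), with the 2 groups alone (0.0751) and with the replicate block (0.0617). Its log2 fold change in TIS CM against No CM was 0.30 with SE 0.10 (limma adjusted p = 0.207). A fit of these 2 groups alone, which leaves out the wide spread of Cont CM, gave the same log2 fold change with SE 0.04 (limma adjusted p = 0.02), as did the full fit without Cont CM replicate 1 with SE 0.05 (limma adjusted p = 0.0181). TIS CM against Cont CM was -0.08 with a 95% interval from -0.30 to 0.14 (limma adjusted p = 0.675).

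CD47 (chromosome 3, 108043094 to 108091862, minus strand, ENSG00000196776) encodes the ligand that signals macrophages through SIRP-alpha not to engulf a cell. Its levels were 22.5, 20.6 and 21.6 FPKM in No CM, 20.2, 21.3 and 20.1 FPKM in Cont CM, and 20.6, 20.0 and 19.0 FPKM in TIS CM. No comparison passed, with log2 fold changes of -0.07, -0.11 and -0.05 for Cont CM against No CM, TIS CM against No CM and TIS CM against Cont CM. The 95% intervals lay within -0.22 and 0.06 in all 3. With the GC and length trend removed, Cont CM against No CM was -0.13 and passed (limma adjusted p = 0.044). The CD47 transcript has a GC content of 38.4%.

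LGALS9 (chromosome 17, 27629798 to 27649560, plus strand, ENSG00000168961) encodes galectin-9, a sugar-binding ligand of TIM-3. Its level was low, with 23 to 57 fragments per library. The values were 0.174, 0.277 and 0.153 FPKM in No CM, 0.159, 0.151 and 0.183 FPKM in Cont CM, and 0.242, 0.266 and 0.106 FPKM in TIS CM, and the groups overlapped. LGALS9 fell below the expression filter, and when every gene above 0 was tested its limma adjusted p lay between 0.775 and 1. Near-identical copies exist: LGALS9B reached 0.193 FPKM and LGALS9C 0.0293 FPKM in single libraries, so how fragments were split between the 3 genes is uncertain. LGALS9 also shares 294 exon bases with AC015688.4 on the same strand.

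**Figure D4:**
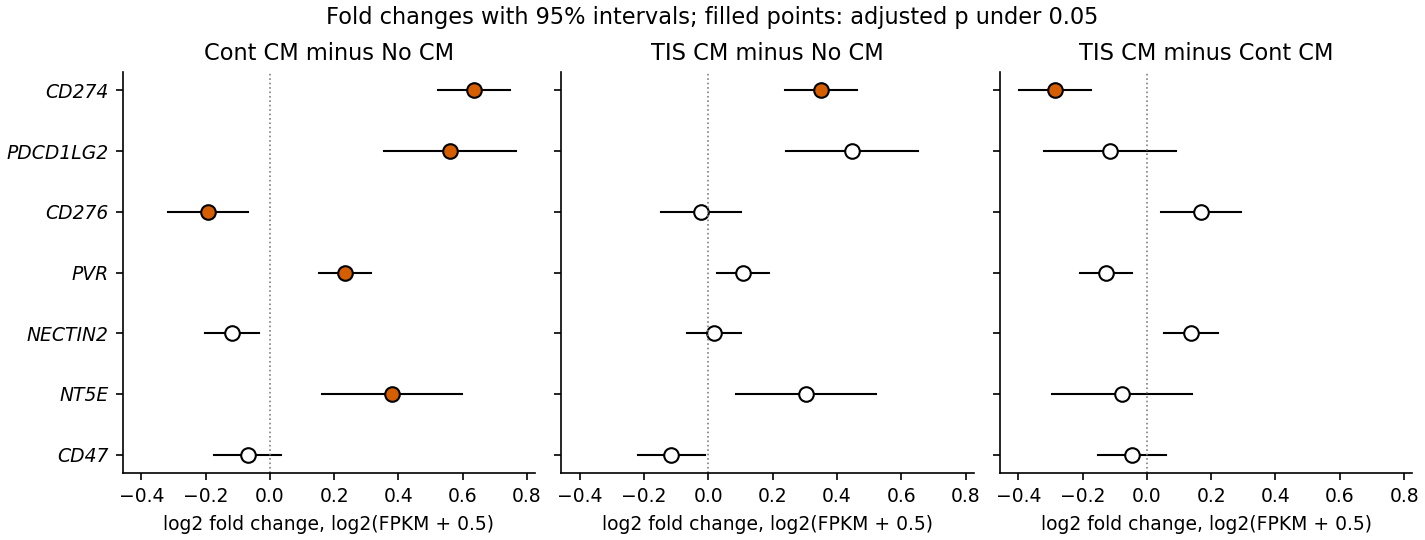
Log2 fold change on the log2(FPKM + 0.5) scale (horizontal axes) of the 7 tested members in the 3 comparisons; lines are 95% intervals and filled points have an adjusted p under 0.05. There are 5 filled points in Cont CM against No CM, and CD274 alone in each of the other two panels, at 0.35 and -0.29.

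Genes around these ligands were read from lists chosen for their roles. Over all tested genes, the share called was 16.3% in Cont CM against No CM. It was 4.48% in TIS CM against Cont CM and 0.855% in TIS CM against No CM. Among 23 other B7 family and inhibitory ligands, 12 were tested, 9 more had fragments but lay below the filter, and CD86 and CD200 had 0 fragments in every library. In Cont CM against No CM limma called 0 of the 12 higher and 4 lower, 8 had an unadjusted p under 0.05, and voom called 7. The 4 were BTN3A3 (1.56-fold) and BTN3A1 (1.15-fold), butyrophilins sensed by gamma-delta T cells, CD24 (1.53-fold), which binds Siglec-10, and HLA-E (1.17-fold), the ligand of the inhibitory NKG2A receptor. The median log2 fold change of the 12 was -0.22. HLA-E did not pass once the GC and length trend was removed (-0.16, limma adjusted p = 0.0673). CD24 was also 1.5-fold lower in TIS CM than in No CM, and the other 11 did not pass. That call held in 1 of 9 omissions, without Cont CM replicate 1, and was lost without the filter (limma adjusted p = 0.132), with a pseudocount of 0.1 FPKM (0.0502) and with the replicate block (0.139). Against Cont CM, limma called 0 of the 12 in TIS CM, while 3 had an unadjusted p under 0.05 and voom called 1.

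Receptors for these ligands were scarce. Of 17 checkpoint receptor genes, TIGIT, PVRIG and KIR3DL3 had 0 fragments in every library, and only SIRPA, the CD47 receptor, reached the filter. The 17 summed to between 0.739 and 1.18 FPKM in No CM, 0.338 and 0.782 in Cont CM, and 0.734 and 0.829 in TIS CM. SIRPA stood at 0.666, 0.381 and 0.570 FPKM in No CM, Cont CM and TIS CM and passed in no comparison.

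The next list held genes of the interferon gamma, JAK and STAT route that induces PD-L1, together with feedback inhibitors. The part of this route in the change of CD274 was not tested. Of 15 tested out of 16, limma called 0 higher and 4 lower in Cont CM against No CM, while 6 had an unadjusted p under 0.05 and voom called 4 (median log2 fold change -0.06). IRF1, a transcription factor that binds interferon-response elements, fell 1.27-fold, from 8.14 ± 0.239 to 6.34 ± 0.476 FPKM (SD, n = 3, limma adjusted p = 0.00647). STAT2 fell 1.18-fold, and the feedback inhibitors SOCS1 and SOCS3 fell 1.41-fold and 1.30-fold. SOCS1 did not pass with the GC and length trend removed (log2 fold change -0.37, limma adjusted p = 0.118). Limma called 0 of the 15 in either TIS CM comparison, while against Cont CM 5 had an unadjusted p under 0.05 and voom called 2, and against No CM 3 and 0.

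Among 17 other transcription factors linked to CD274 transcription, all tested, 4 rose and 2 fell in Cont CM against No CM (median log2 fold change 0.01). FOSL1, an AP-1 subunit, rose 1.33-fold, MYC 1.15-fold, the Hippo effector YAP1 1.12-fold and the AP-1 subunit JUN 1.09-fold. BCL3, a co-regulator of NF-kappaB, fell 1.33-fold and the YAP partner TEAD4 1.14-fold. FOSL1 and BCL3 kept these calls in all 9 omissions of 1 library. MYC kept its call only without Cont CM replicate 1 and JUN only without Cont CM replicate 2, while YAP1 kept it in 3 of 9 omissions and TEAD4 in 5. YAP1 (log2 fold change 0.12, limma adjusted p = 0.152) and TEAD4 (-0.09, 0.208) did not pass once the GC and length trend was removed. In TIS CM, FOSL1 was 1.26-fold higher than in No CM, and TEAD4 was 1.14-fold higher than in Cont CM. FOSL1 kept that call only without Cont CM replicate 1 or 2, and TEAD4 only without Cont CM replicate 1. Neither passed once the trend was removed (limma adjusted p = 0.0899 for FOSL1 and 0.332 for TEAD4).

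Of 17 genes for partners and turnover of the PD-1 ligands, all tested, 4 rose and 0 fell in Cont CM against No CM, while 7 had an unadjusted p under 0.05 and voom called 6 (median log2 fold change -0.02). RGMB, a BMP co-receptor that also binds PD-L2, rose 1.48-fold and stood 1.29-fold lower in TIS CM. ZDHHC9, a palmitoyltransferase of PD-L1, rose 1.23-fold, and BTRC and GSK3B, which mark PD-L1 for degradation, rose 1.22-fold and 1.17-fold. GSK3B kept its call in 2 of 9 omissions, those of No CM replicate 1 and Cont CM replicate 1. CMTM6, which keeps PD-L1 on the surface, stood at 38.6, 36.5 and 40.2 FPKM in No CM, Cont CM and TIS CM and passed in no comparison.

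Around PVR, NECTIN2 and NT5E, limma called 1 gene per list in Cont CM against No CM. Of 8 nectin-family genes other than PVR and NECTIN2, 4 were tested and NECTIN1 fell 1.27-fold in Cont CM against No CM. Of 16 adenosine pathway genes, 9 were tested and 1 was called in that comparison, PNP, which breaks down inosine and rose 1.16-fold, while 3 had an unadjusted p under 0.05 and voom called 3. PNP kept its call in 3 of 9 omissions, and did not pass with the GC and length trend removed (log2 fold change 0.18, limma adjusted p = 0.0745). In both TIS CM comparisons limma called 0 genes of either list. Against Cont CM, 4 nectin-family and 0 adenosine genes had an unadjusted p under 0.05 and voom called 0 of either, and against No CM, 1 and 3 did and voom called 0 and 1. ENTPD1, which encodes the CD39 enzyme that supplies AMP to CD73, did not exceed 0.0146 FPKM in any library. The adenosine receptor gene ADORA2B stood at 29.8 ± 1.35, 34.3 ± 3.12 and 37.1 ± 0.599 FPKM in No CM, Cont CM and TIS CM (SD, n = 3), and TIS CM against No CM did not pass (log2 fold change 0.31, limma adjusted p = 0.07).

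In the CD47 and SIRP list 9 of 13 genes were tested, and 4 rose and 1 fell in Cont CM against No CM (median log2 fold change 0.12). LRP1, a receptor on engulfing cells, rose 1.52-fold. QPCT and QPCTL, glutaminyl cyclases of which QPCTL modifies CD47, rose 1.34-fold and 1.15-fold, and the integrin gene ITGB3 rose 1.25-fold. CALR, which encodes the engulfment signal calreticulin, fell 1.24-fold. LRP1 and QPCT kept these calls in all 9 omissions. QPCTL kept its call in 2 (No CM replicate 2 and Cont CM replicate 3), CALR in 3 (the Cont CM libraries) and ITGB3 in 4. CALR did not pass with the GC and length trend removed (log2 fold change -0.25, limma adjusted p = 0.107). Between TIS CM and Cont CM, LRP1 and ITGB3 were lower in TIS CM, by 1.30-fold and 1.28-fold. LRP1 kept that call in 4 of 9 omissions and ITGB3 only without Cont CM replicate 1. Among the 14 other galectins, 5 were tested and LGALS12 alone was called. It stood at 7.57, 1.36 and 3.04 FPKM in No CM, Cont CM and TIS CM. LGALS12 was 4.32-fold lower in Cont CM and 2.27-fold lower in TIS CM than in No CM, and 1.90-fold higher in TIS CM than in Cont CM. The call of Cont CM against No CM held in all 9 omissions. That of TIS CM against No CM held in 5 and that of TIS CM against Cont CM in 6. These TIS CM calls were lost with the replicate block (limma adjusted p = 0.0635 and 0.0523). Over all the lists 8 genes other than members were called in TIS CM against Cont CM, and 0 of the 8 remained called without TIS CM replicate 1 or without TIS CM replicate 2.

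**Figure D5:**
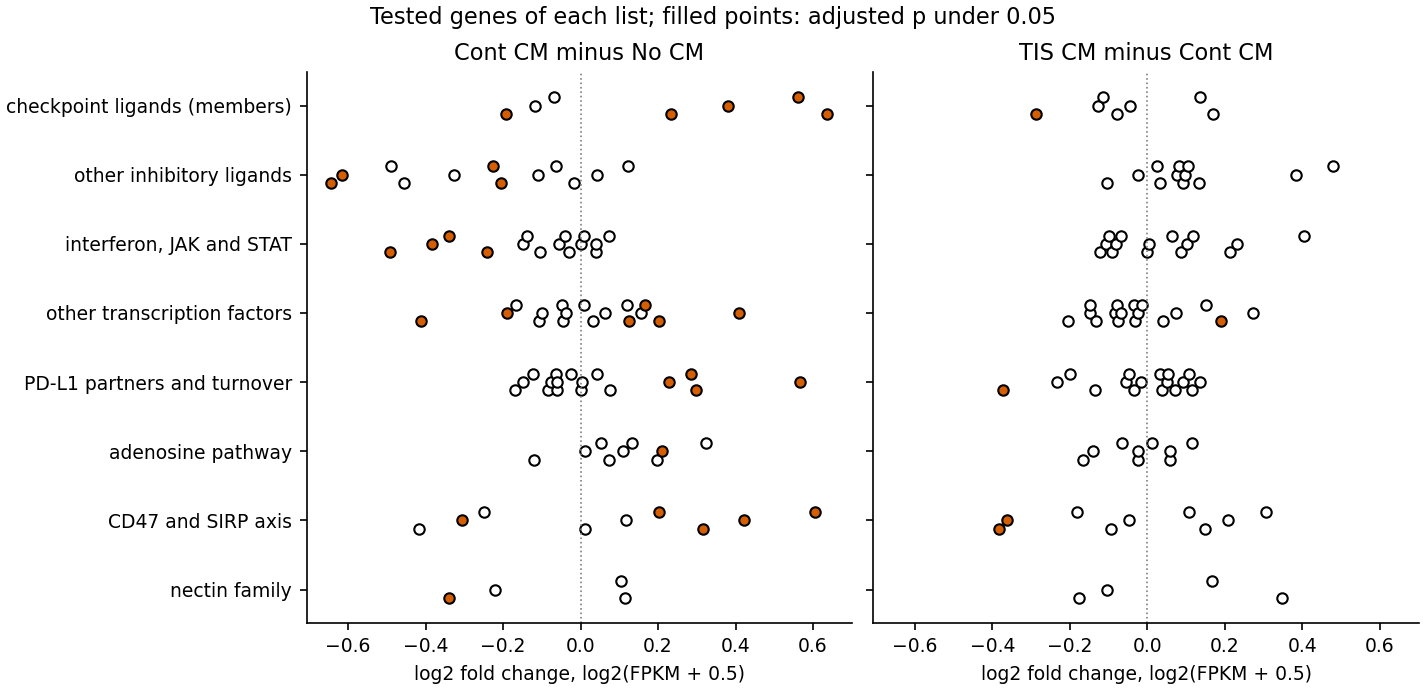
Log2 fold change (horizontal axes) of each tested gene in 8 lists (rows), in Cont CM against No CM and in TIS CM against Cont CM; filled points have an adjusted p under 0.05, and vertical offsets within a row only separate points. In Cont CM against No CM the filled points of the members lie between -0.19 and 0.64, and those of the interferon, JAK and STAT list lie below 0.

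For each tested member the 2 protein-coding genes with the most similar profile over the 9 libraries were found by Pearson r among 11269 genes. The 9 points come from 3 groups, so r mostly reflects the differences between groups and is given as a description. CD274 was closest to MGLL (r = 0.987) and CCDC80 (r = 0.982), and PDCD1LG2 to CTGF (r = 0.985), a matricellular growth factor gene, and TMX3 (r = 0.972). PVR was closest to CYLD (r = 0.989), which encodes a deubiquitinase of NF-kappaB signalling, and FRMD6 (r = 0.984). NT5E was closest to the collagenase gene MMP1 (r = 0.99) and to CDK2 (r = 0.988). CD276 was closest to VAV2 and COMMD9 (r = 0.971 for each), NECTIN2 to NINJ1 (r = 0.971) and ABHD17A (r = 0.959), and CD47 to ZNF121 (r = 0.924) and ZNF841 (r = 0.916).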

How the data were processed

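Polyadenylated RNA was captured, fragmented and primed with random hexamers, per the labels' protocols. Build hg38, featureCounts 1.5.0-p3, HISAT2 2.0.5, fastp and DESeq2 1.20.0 are named without roles, per the submitters' processing notes. The authors deposited FPKM for 58735 genes in 9 libraries. All gene IDs, starts and ends matched GENCODE 29. Multiplied by gene length, 100% of the values came out as whole fragments (within 0.01) at 1 scale factor per library, which gave the fragment numbers. No source used here gives the strand setting.

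Genes with a mean of at least 0.5 FPKM were tested on log2(FPKM + 0.5) with limma 3.58.1 in R 4.3.3 (all libraries, group means, intensity trend). The fit was also run on simulated fragment counts. Those had the same extra spread for every gene and no GC or length trend, so that run does not cover such effects. Alternatives were other pseudocounts, filters and scalings, voom, 2-group fits, a replicate block, each library left out and, added after the data were seen, removal of each library's GC and length trend.

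The members and lists were chosen with earlier results of these data known. Named genes were the members, up to 4 called genes per list and direction, tested neighbours within 500 kb of CD274, and the 2 closest profiles per member. VIM, ESR1, PGR, SPARC, ERBB2, EPCAM, PTPRC, CSF1R, CD8A, SIRPA, CMTM6, ENTPD1, ADORA2B, LGALS9B and LGALS9C were named after their values were seen.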

Additional observations from a re-analysis of the deposited data

How the results depend on the processing

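Of the values for the 7 tested members under all alternatives, 352 kept their direction and their side of the threshold, 32 lost a call, 8 gained one and 7 changed sign. CD274, PDCD1LG2 and PVR in Cont CM against No CM kept their calls under every alternative run. With only the 2 groups compared, the members called were 0 in TIS CM against Cont CM, 3 in Cont CM against No CM and 3 in TIS CM against No CM. Without the expression filter 3 were called in Cont CM against No CM, and with equal library sums 6. Leaving out 1 library at a time gave 0 to 1, 3 to 5 and 0 to 3 members called in the same order of comparisons, and 11 to 1084, 1075 to 2770 and 9 to 365 genes called over all tested genes. Over the other alternatives those gene counts ran from 33 to 1085, 1242 to 2694 and 4 to 331. Of 623 genes called in TIS CM against Cont CM 64.8% were higher, against 41.8% with equal library sums and 53.2% with quantile normalization. In TIS CM against No CM 47.1% were higher, against 20.9% with equal library sums.

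Replicate numbers did not pair the libraries: deviations of same-numbered libraries correlated between -0.187 and 0.0838, and 1 of 9 libraries correlated best with its own number. With the replicate block 3 members were called in Cont CM against No CM and 0 in TIS CM against No CM, and 126, 1461 and 4 genes over all tested genes.

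Sign changes concerned log2 fold changes that had not passed. Removing the GC and length trend turned CD47 (0.0196) and ERMP1 (0.0302) in TIS CM against Cont CM and RIC1 (-0.0267) in Cont CM against No CM. In TIS CM against No CM, NECTIN2 turned with equal library sums (-0.0296) and quantile normalization (-0.0029). Leaving out 1 library at a time, the TIS CM against Cont CM values ran from -0.204 to 0.0203 for NT5E (turned without Cont CM replicate 2), from -0.0510 to 0.0471 for ERMP1 and from -0.0346 to 0.170 for PLGRKT (both turned without Cont CM replicate 1). In Cont CM against No CM they ran from -0.0891 to 0.0228 for JAK2 (turned without Cont CM replicate 3 or No CM replicate 2) and from -0.0050 to 0.0433 for RIC1 (turned without Cont CM replicate 2). In TIS CM against No CM they ran from -0.0728 to 0.0068 for CD276 (turned without No CM replicate 1) and from -0.0059 to 0.0395 for NECTIN2 (turned without No CM replicate 3 or TIS CM replicate 1). The cause of these changes was not tested. LGALS9 rests on 23 to 57 fragments per library, and VTCN1 and CD80 had 0.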
